A study of Mus musculus with 14 samples.

Results

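The 8 genes with little known role in endoderm that were followed here are Eya2, Ctxn1, Shroom3, Gdpd5, Fam210b, Col9a3, Plekhg3 and Hdac6, 8 of the 24054 genes in the tables. They were selected on their levels in d3ko and d3con, each being lower in every library of the former, so their values in those 2 groups describe the choice and are given without a test. No numerical threshold belonged to the choice. RNA was sequenced in 14 mouse embryonic stem cell (ESC) libraries, at low input. In d0con and d3con (titled het) the cells were Foxa2-Venus-KO/+, with the nuclear reporter H2B-Venus in place of the coding region of Foxa2 on a single allele. In d0ko and d3ko (titled homo) they were Foxa2-Venus-KO/Foxa2-Venus-KO, with the reporter on both alleles, so that the control groups also carried 1 disrupted allele. The d0 cells (2 libraries per genotype) were undifferentiated ESC cultured without LIF on red fluorescent mouse embryonic fibroblasts and sorted as Cherry-negative. The d3 cells (3 libraries per genotype) were sorted as Venus-positive after 3 days on Wnt3a-secreting feeder cells with 12 ng/ml Activin A. The d2-FVFn and d2-FVFp libraries (2 each) came from a different, lentivirally transduced line that carries a doxycycline-inducible Foxa2-Venus fusion in a Sox17-Cherry background, with a constitutive promoter driving the transactivator. Both were kept in serum and LIF without feeders, were given doxycycline at 40 ng/ml, and after 48 hours were separated into Venus-negative and Venus-positive cells of the same culture conditions. The methods name 2 ESC clones for each genotype, and the labels give the same transduced line for all 4 induction libraries. The study calls its day 0 and day 3 replicates biological, but the labels do not tie libraries to separate cultures, so that p-values measure only the spread between these libraries.

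Foxa2 is a forkhead transcription factor that can bind its sites in closed chromatin and is needed for definitive endoderm, node and notochord. The 8 genes have diverse roles. Eya2 encodes a phosphatase that also acts as a coactivator of sine oculis-type homeodomain proteins, and Hdac6 a mostly cytoplasmic deacetylase of tubulin. Shroom3 acts at apical junctions and drives apical constriction, Plekhg3 encodes a protein with a pleckstrin homology domain, and Gdpd5 (GDE2) is a membrane glycerophosphodiester phosphodiesterase that releases GPI-anchored proteins from the cell surface. Col9a3 encodes a chain of collagen IX, Fam210b a mitochondrial membrane protein linked to heme synthesis, and Ctxn1 the small membrane protein cortexin, best known from brain cortex.

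Of the 8 genes, 3 lie on chromosome 2 beyond Foxa2 (RefSeq, GRCm38, all positions below): Eya2 at chr2:165595028-165771727, Fam210b at chr2:172345570-172355749 and Col9a3 at chr2:180598102-180622192, with Foxa2 itself at chr2:148042877-148046969. Shroom3 spans chr5:92683435-92965759, Gdpd5 chr7:99381463-99461875, Ctxn1 chr8:4257646-4259274, Plekhg3 chr12:76533303-76580489 and Hdac6 chrX:7930116-7948047. RefSeq promoter sequences (GRCm38.p6, 250 bases before to 50 after a start) were held for 4 of the 8, with 2 windows for Shroom3 and 1 each for Fam210b, Ctxn1 and Hdac6. The 250 bases before the start are shown for Fam210b, which rose with induced Foxa2-Venus, and for Ctxn1, for which no change was called there. Capitals mark CpG dinucleotides.

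Fam210b, chr2:172345327-172345576, plus strand: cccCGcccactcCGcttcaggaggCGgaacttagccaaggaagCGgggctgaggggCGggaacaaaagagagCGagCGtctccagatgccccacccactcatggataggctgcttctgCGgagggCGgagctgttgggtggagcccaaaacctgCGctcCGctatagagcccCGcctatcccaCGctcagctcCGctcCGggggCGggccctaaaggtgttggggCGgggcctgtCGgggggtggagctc
Ctxn1, chr8:4259275-4259524, minus strand: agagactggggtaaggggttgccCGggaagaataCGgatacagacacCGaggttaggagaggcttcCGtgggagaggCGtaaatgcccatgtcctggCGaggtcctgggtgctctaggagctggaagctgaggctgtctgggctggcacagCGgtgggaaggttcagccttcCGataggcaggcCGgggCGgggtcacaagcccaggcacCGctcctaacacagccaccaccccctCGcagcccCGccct

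Both windows were CpG-rich, with 24 CpG in the 300 bases of Fam210b and 21 in those of Ctxn1, against a median of 7 over 32851 promoter windows. The Hdac6 window held 20 and the Shroom3 windows 12 and 37, but these 3 belong to transcript starts inside the gene spans given above, not to the first base of those spans. The Fam210b start also lies a few bases inside its span (printed bases to chr2:172345576, span from chr2:172345570). None of the 5 windows held a forkhead match (TGTTTAC, its close variant TGTTTGC, or the weaker forms TATTTAC and also TATTTGC, either strand), which 13.5% of all windows did. None held AGATAA (11.2% of all windows) or TATAAA (13.6%) on either strand. The Hdac6 window and both Shroom3 windows held CCAAT or its complement, as did 37.4% of all windows. A match or its absence describes these letters only.

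Libraries held 14142788 to 27278237 expected counts. Foxa2, the targeted gene, checked the labels. It was at 58.6, 34.8 and 54.5 TPM (transcript share scaled for gene length and depth) in d3con and at 0.11, 0.15 and 0.19 TPM in d3ko, with 0.07 to 0.14 TPM at day 0. In the inducible line it was at 2.99 and 2.01 TPM in d2-FVFn and at 168.57 and 159.81 TPM in d2-FVFp. Sums over fixed marker lists moved with the groups. The 9 endoderm markers, Sox17 and Gata4 among them, summed to 1180 to 1730 TPM in d3con and 65.2 to 455 TPM in d3ko, with none of the 9 at 0 in every library of either group. Cer1 was the largest term in d3con, with a mean of 546 TPM. Cxcr4 overlapped (28.0 to 52.8 TPM in d3con and 3.51 to 31.7 TPM in d3ko), and the other endoderm markers were lower in every d3ko library. The 6 pluripotency markers summed to 562 to 985 TPM in d3con and 2670 to 17400 TPM in d3ko, again with none at 0. Dppa5a was by far the largest term of this sum, with means of 460 TPM in d3con and 10500 TPM in d3ko. Nanog overlapped between the groups (40.2 to 246 TPM and 240 to 345 TPM), and the other pluripotency markers were higher in every d3ko library. By effective gene length, the first replicate of each d3 group had 75-base reads and the remaining 12 libraries 50-base reads. In a sorted population, fewer cells of a type and less RNA per cell cannot be told apart.

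Eya2 had the steepest pattern. It was at 18.1, 7.76 and 14.6 TPM in d3con and at 0.15, 0.21 and 0.21 TPM in d3ko, with 3 to 7 counts per d3ko library. At day 0 it was at 0.07 and 0 TPM in d0con and at 0.09 and 0.24 TPM in d0ko, or 0 to 7 counts. The d3ko libraries lay within the day 0 range, and replicate 2 was the lowest of the d3con libraries. In the inducible line the d2-FVFn libraries were at 0.20 and 0.12 TPM (4 and 3 counts) and the d2-FVFp libraries at 6.20 and 9.85 TPM (113 and 204 counts). The mean of d2-FVFp, 8.03 ± 2.58 TPM (SD, n = 2), was below that of d3con, 13.5 ± 5.28 TPM (SD, n = 3), but the libraries of both groups overlapped. Eya2 was thus above 1 TPM in the 5 libraries of d3con and d2-FVFp and in no other.

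Fam210b and Plekhg3 were likewise highest in d3con and next highest in d2-FVFp, on a higher floor. Fam210b was at 34.3, 25.3 and 44.4 TPM in d3con and at 6.49, 8.53 and 8.16 TPM in d3ko. It stood at 4.68 and 3.82 TPM in d0con and at 4.87 and 4.57 TPM in d0ko, which overlap. Venus-negative cells had 3.37 and 2.28 TPM and Venus-positive cells 12.42 and 15.36 TPM. All d3ko libraries were thus above all day 0 libraries and below both d2-FVFp libraries.

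Plekhg3 was at 23.4, 21.5 and 21.1 TPM in d3con, the smallest spread relative to the mean of the 8 genes there after Shroom3, and at 6.74, 8.51 and 5.59 TPM in d3ko. It was at 4.28 and 4.48 TPM in d0con and 4.87 and 5.07 TPM in d0ko. The d2-FVFn libraries had 3.46 and 3.88 TPM and the d2-FVFp libraries 11.94 and 14.9 TPM. Plekhg3 overlaps the antisense non-coding gene AI463170 on chromosome 12, with which it shares 241 exonic bases in GENCODE M21, and strand use in counting was not given in the sources used here. AI463170 held 20, 15 and 34 counts in d3con, 0 to 8 in d3ko, 0 and 1 in d2-FVFn and 6 and 10 in d2-FVFp, against 149 to 1380 for Plekhg3 in these groups. Plekhg3 also touches Sptb, with 2 bases in common.

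Gdpd5 and Col9a3 were low at day 0 and stayed low in Venus-positive cells of the inducible line. Gdpd5 was at 33.6, 20.4 and 38.6 TPM in d3con and at 6.08, 4.98 and 3.51 TPM in d3ko. Its day 0 libraries had 0.36 and 0.24 TPM in d0con and 0.67 and 0.68 TPM in d0ko. In the inducible line it was at 0.71 and 0.45 TPM in d2-FVFn and 1.35 and 1.56 TPM in d2-FVFp, so that d2-FVFp remained below every d3ko library.

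Col9a3 was at 44.3, 19.4 and 48.4 TPM in d3con and at 7.09, 7.89 and 6.18 TPM in d3ko. It was at 0.98 and 0.65 TPM in d0con and at 1.78 and 2.28 TPM in d0ko. The d2-FVFn libraries had 4.93 and 4.35 TPM and the d2-FVFp libraries 3.07 and 4.57 TPM, which overlap. The end of Col9a3 shares 234 exonic bases with Tcfl5 on the other strand, a gene with group means of 3.71 to 13.3 TPM.

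Ctxn1 and Shroom3 were expressed in every group. Ctxn1 was at 91.2, 80.3 and 99.8 TPM in d3con and at 28.2, 25.4 and 26.3 TPM in d3ko. It was at 14.89 and 16.29 TPM in d0con and 13.48 and 15.86 TPM in d0ko, which overlap, and at 10.95 and 13.94 TPM in d2-FVFn and 15.39 and 18.51 TPM in d2-FVFp. All d3ko libraries were therefore above all libraries of the other 4 groups outside d3con.

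Shroom3 was at 42.3, 44.4 and 42.3 TPM in d3con and at 5.83, 13.43 and 9.75 TPM in d3ko. The d3ko libraries spanned the values of d0con (6.33 and 5.86 TPM) and d0ko (8.20 and 8.73 TPM), and those of d2-FVFn (11.1 and 11.5 TPM). The d2-FVFp libraries had 13.9 and 13.4 TPM, at the upper end of d3ko.

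Hdac6 was the most abundant of the 8 genes in all 6 groups, per transcript length, and the only gene of the 8 whose d3ko libraries lay below day 0. It was at 208 TPM, 171 TPM and 283 TPM in d3con and at 57.97, 79.91 and 75.65 TPM in d3ko. The d0con libraries had 89.6 and 96.2 TPM and the d0ko libraries 114 and 130 TPM. Venus-negative cells had 80.93 and 52.96 TPM, overlapping d3ko, and Venus-positive cells had 111 and 119 TPM, overlapping d0ko.

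**Figure D1:**
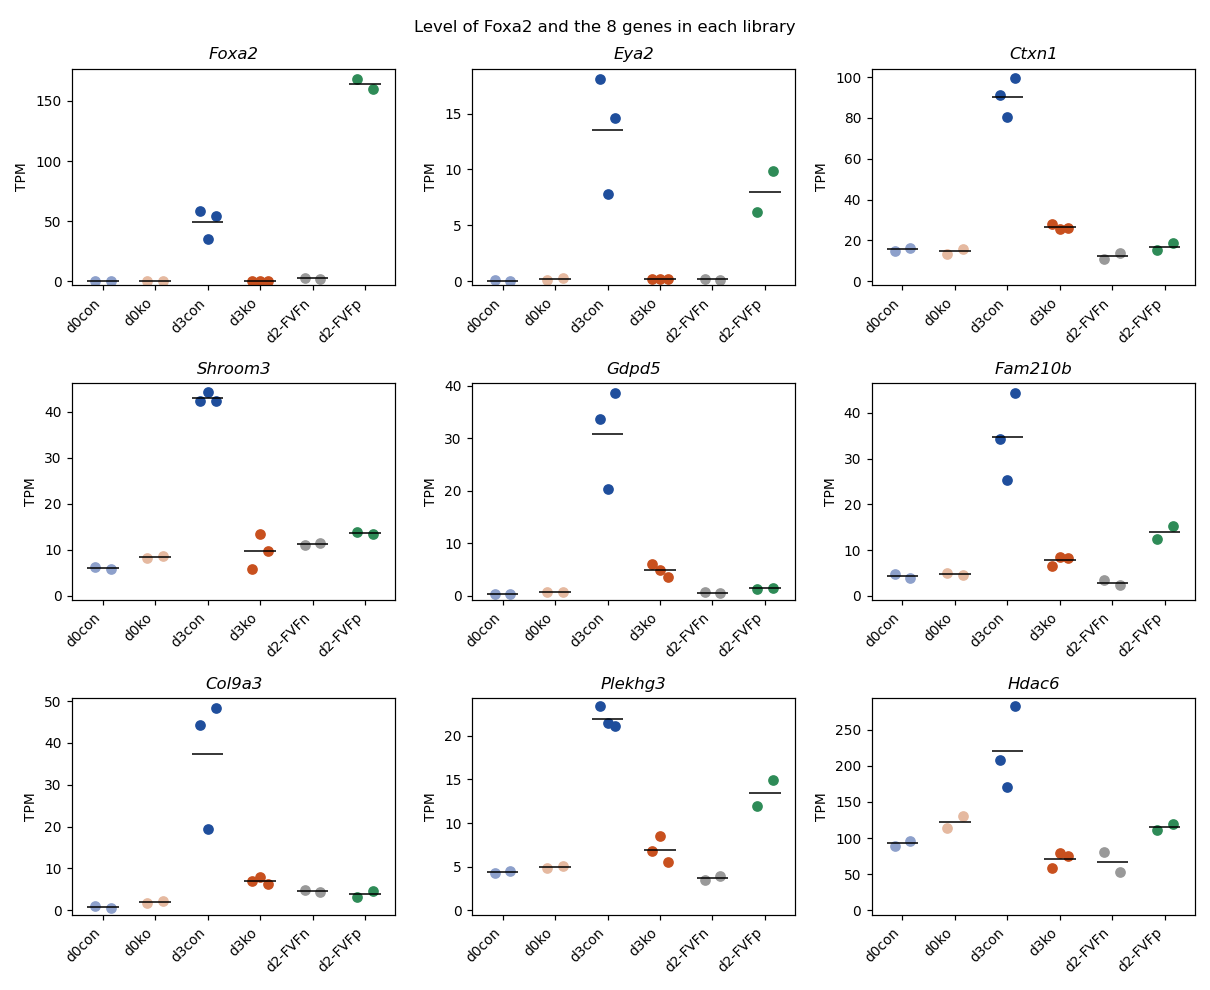
TPM of Foxa2 and of each of the 8 genes (a panel each, linear axes from 0) in the 14 libraries by group, with a point for each library and a line at the group mean. Every d3con library lay above every d3ko library for each of the 8 genes, as the choice of genes fixes, while the d2-FVFp points approached d3con for Eya2 (8.03 against 13.5 TPM on average) and stayed near d2-FVFn for Shroom3 (13.6 against 11.3 TPM).

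By the choice of genes, d3ko lay below d3con for all 8. The fitted log2 fold changes of d3ko over d3con were -6.17 ± 0.61 (SE) for Eya2, -2.68 ± 0.30 for Gdpd5, -2.42 ± 0.34 for Col9a3, -2.17 ± 0.22 for Fam210b and -2.16 ± 0.24 for Shroom3. Ctxn1 had -1.77 ± 0.15, Plekhg3 -1.67 ± 0.18 and Hdac6 -1.63 ± 0.19. Their median was -2.17, beside 0.02 over the 13899 genes tested, and -1.98 when replicate 1 of both groups, with the longer reads, was left out. Ordered from the lowest fold change, they took ranks 31 (Eya2) to 494 (Hdac6). For comparison, 3.51% of all genes were called lower (edgeR, adjusted p under 0.05 and over 2-fold) and 12.3% had every d3ko library below every d3con library. The sums of endoderm and pluripotency markers given above moved with this difference, and their part in it was not tested.

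Each d3ko library was also set against the mean of d3con. The differences ran from -5.90 to -5.49 (log2) for Eya2, from -2.87 to -1.72 for Shroom3, from -3.09 to -2.29 for Gdpd5 and from -1.99 to -1.41 for Plekhg3. They ran from -1.86 to -1.68 for Ctxn1, the narrowest span of the 8. The median of 516 genes on chromosome 8, where Ctxn1 lies, was -0.44 relative to the autosomes in d3ko replicate 2, while it was 0 and 0.02 in replicates 1 and 3. Relative to that median the Ctxn1 difference was -1.42 in replicate 2 and -1.68 and -1.81 in the others. In replicate 2 the medians of the remaining autosomes lay between -0.02 and 0.08. For the 200 genes of chromosome 2 beyond Foxa2, around Eya2, Fam210b and Col9a3, the medians were -0.02 to 0.07, so that that part of the chromosome showed no shift of the size of the 3 genes' differences. For the 285 genes of chromosome X, which holds Hdac6, they were -0.01, 0.06 and -0.19.

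**Figure D2:**
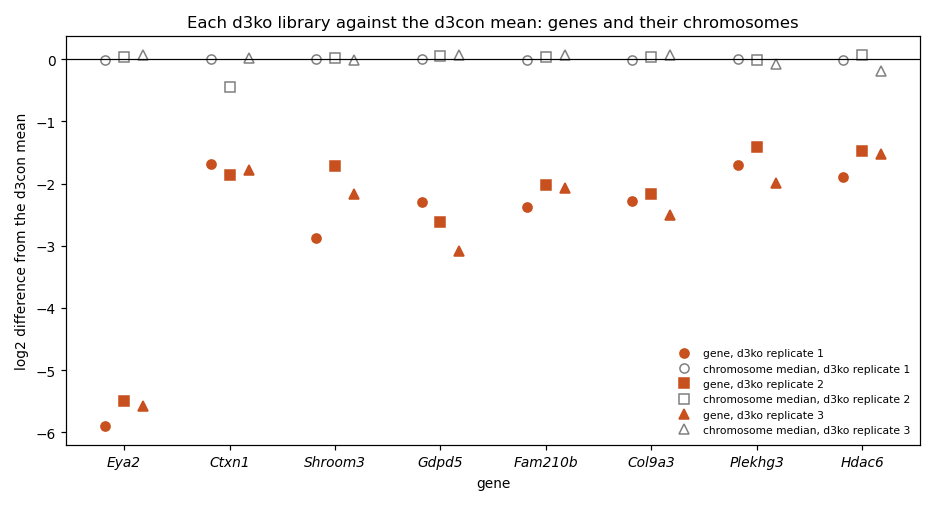
Log2 difference of each d3ko library from the d3con mean (vertical axis) for the 8 genes (filled symbols) and for the median of the chromosome on which each lies (open symbols; for Eya2, Fam210b and Col9a3 the part of chromosome 2 beyond Foxa2), with a symbol shape for each replicate. The genes lay between -5.90 and -1.41 and the chromosome medians between -0.44, for chromosome 8 in replicate 2, and 0.07.

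From day 0 to day 3 all 8 genes had higher values in the control genotype, with every d3con library above every d0con library, which held for 45.5% of all genes. These changes share the d3 libraries with the choice of genes and are described only. In control cells the fitted log2 change was 6.45 ± 0.45 (SE) for Gdpd5 and 5.31 ± 0.48 for Col9a3. It was 2.82 ± 0.27 for Fam210b, 2.62 ± 0.29 for Shroom3, 2.33 ± 0.18 for Ctxn1, 2.13 ± 0.21 for Plekhg3 and 1.04 ± 0.21 for Hdac6. Eya2 gets no fold here, since d0con held 2 counts in all.

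In ko cells the same genes fell into separate patterns. Gdpd5 and Col9a3 kept a part of their change, 2.68 ± 0.37 (SE) and 1.63 ± 0.40, with means 7.20-fold and 3.47-fold over d0ko in TPM. Ctxn1 had 0.69 ± 0.17, Fam210b 0.54 ± 0.24 and Plekhg3 0.31 ± 0.20, and for these 5 genes every d3ko library was above every d0ko library, as for 36.6% of all genes. Shroom3 was at 0.02 ± 0.26 and its libraries overlapped. Hdac6 was at -0.94 ± 0.20, with every d3ko library below every d0ko library, a pattern of 21.4% of all genes. A higher level in d3con than d0con together with a lower level in d3ko than d0ko, in every library, was found for Hdac6 alone among the 8 and for 0.748% of all genes. The choice fixed d3ko below d3con, which favours this pattern, so the share over all genes does not measure its rarity here.

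**Figure D3:**
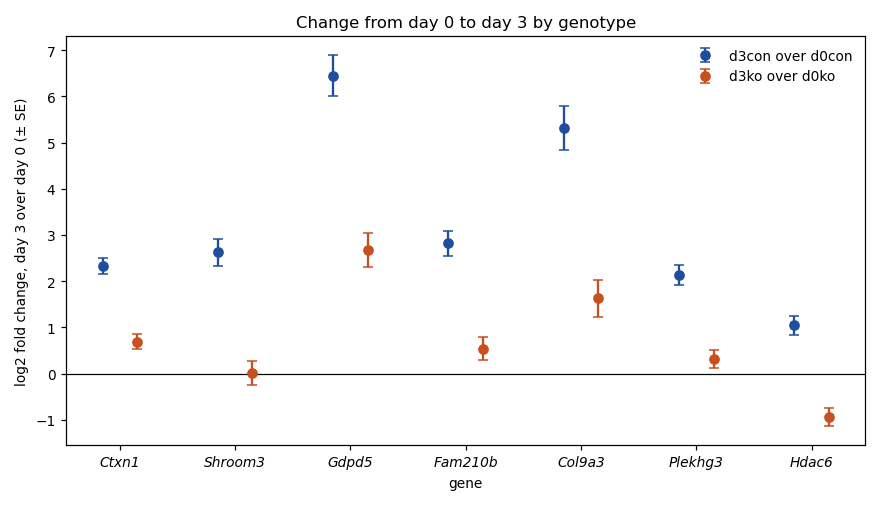
Fitted log2 fold change from day 0 to day 3 (vertical axis, points with bars of ± SE) for 7 genes in control cells (d3con over d0con, blue) and in ko cells (d3ko over d0ko, orange). Eya2 is left out since its day 0 libraries held 0 to 7 counts. Gdpd5 and Col9a3 had the largest change left in ko cells (2.68 and 1.63), and Hdac6 lay on opposite sides of 0 (1.04 and -0.94).

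Induction of Foxa2-Venus in ESC, outside endoderm differentiation, gave libraries outside the contrast on which the genes were chosen. The choice was nevertheless made with earlier results of these data known, so these tests may not be independent of it. Eya2, Fam210b and Plekhg3 rose, beside 6.96% of the 12943 genes tested (edgeR quasi-likelihood F test, adjusted p under 0.05 and over 2-fold). Eya2 rose by 5.61 ± 0.47 (log2, SE; 95% interval 4.50 to 6.71; adjusted p = 0.00142, edgeR), or 48.8-fold. It passed the filter of 1 CPM (counts scaled to library size) only through the d2-FVFp libraries, so that it could enter the test only if it was high there, and its d2-FVFn level rests on 7 counts. Without the filter it had a log2 fold change of 5.60. Fam210b rose by 2.26 ± 0.26 (1.65 to 2.86; adjusted p = 0.00328, edgeR), or 4.77-fold. Plekhg3 rose by 1.82 ± 0.20 (1.35 to 2.29; adjusted p = 0.00277, edgeR), or 3.53-fold, but was no longer called in a DESeq2 test against a 2-fold change (adjusted p = 0.0698). All 3 had both d2-FVFp libraries above both d2-FVFn libraries, as did 7 of the 8 genes and 35.1% of all genes.

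Hdac6 passed the p threshold but not the fold threshold, with 0.74 ± 0.20 (log2, SE; 0.27 to 1.21; adjusted p = 0.0463, edgeR). Without d2-FVFn replicate 2 it was at 0.48 (adjusted p = 0.19, edgeR) and without d2-FVFn replicate 1 at 1.10 (adjusted p = 0.0279), so that passing the threshold rested on single libraries. Gdpd5 had a log2 fold change of 1.28 ± 0.44, which did not pass (0.25 to 2.30; adjusted p = 0.0868, edgeR), on 17 to 49 counts per library. For the remaining 3 genes the intervals included 0. They were -0.18 to 0.97 for Ctxn1 (0.40, adjusted p = 0.298, edgeR), -0.12 to 0.55 for Shroom3 (0.22, adjusted p = 0.331) and -1.02 to 0.37 for Col9a3 (-0.32, adjusted p = 0.486). All 3 intervals thus stayed under a 2-fold increase in this fit, that of Ctxn1 only narrowly. DESeq2 gave Ctxn1 a wider SE (0.34, against 0.25 by edgeR). None of the 8 was called lower by edgeR or DESeq2, and 0 were lower at an unadjusted p under 0.05, beside 1.47% of all genes called lower. The median of the 8 was 1.01, beside 0.01 for all genes tested. In the same libraries 6 node and notochord markers summed to 2.76 to 4.36 TPM in d2-FVFn and 41.8 to 44.5 TPM in d2-FVFp. Foxj1, Shh and Chrd made up most of the latter sum, with means of 19.9, 15.8 and 6.02 TPM. Noto was at 0 in d2-FVFn and at 0.36 to 0.51 TPM in d2-FVFp, and Nog and Tekt1 overlapped. The 9 endoderm markers summed to 7.75 to 8.78 TPM in d2-FVFn and 19.1 to 28.4 TPM in d2-FVFp. Sox17 (at most 0.59 TPM), Hhex, Cxcr4 and Gsc overlapped between the groups. The other endoderm markers, Gata4 and Gata6 among them, were higher in every d2-FVFp library. The part of these cell states in the result was not tested.

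**Figure D4:**
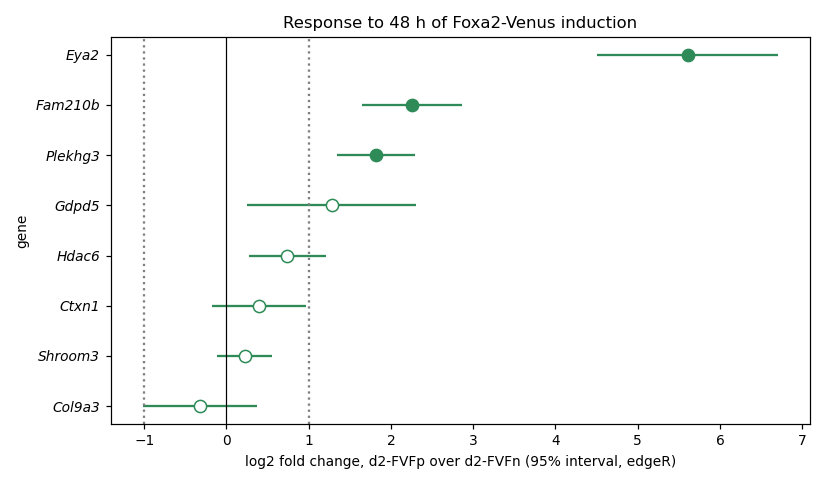
Log2 fold change of d2-FVFp over d2-FVFn (horizontal axis) for the 8 genes with its 95% interval from the edgeR fit, and dotted lines at a 2-fold change. Filled points mark the 3 called genes, Eya2 (5.61), Fam210b (2.26) and Plekhg3 (1.82), and open points the 5 others, from 1.28 for Gdpd5 to -0.32 for Col9a3.

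At day 0, where Foxa2 was at or below 0.14 TPM in both genotypes, none of the 8 genes was called between d0ko and d0con (edgeR, adjusted p = 1.0 for each). No gene of the 13899 was called by edgeR (0%), with 195 genes (1.40%) at an unadjusted p under 0.05, and DESeq2 called 1 gene, none of the 8. Gdpd5 and Col9a3 were among the 195, with log2 fold changes of 1.09 ± 0.44 (SE; 95% interval 0.10 to 2.09) and 1.26 ± 0.45 (0.25 to 2.28). That fit drew its spread from the day 0 and day 3 libraries together. In a fit of only the d0 groups, 1377 of 12408 genes fell below the same unadjusted threshold, though edgeR still called 0. The SE shrank there from 0.29 to 0.11 for Shroom3 and from 0.22 to 0.09 for Hdac6 (adjusted p = 0.406 for each, edgeR). The lack of calls therefore does not show that the genotypes had equal levels. Both d0ko libraries were above both d0con libraries for Eya2, Shroom3, Gdpd5, Col9a3, Plekhg3 and Hdac6, 6 of the 8 genes, and for 28.9% of all genes. The 95% intervals of Ctxn1 (-0.54 to 0.29), Fam210b (-0.48 to 0.71), Plekhg3 (-0.34 to 0.62) and Hdac6 (-0.15 to 0.85) stayed within a 2-fold change either way. The 8 fibroblast markers, Col1a1 and Dcn among them, summed to 12.1 to 14.4 TPM in d0con and 37.8 to 136 TPM in d0ko, with none of the 8 at 0 in every library of either group. At day 3 they summed to 53.5 to 306 TPM in d3con and 119 to 366 TPM in d3ko, which overlap. Their part in the day 0 and day 3 values was not tested.

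The relatives and partners of the 8 genes were followed in 9 lists of 74 genes in all. Of the 64 that could be tested at day 3, 5 fell in d3ko and none rose, and of the 59 tested in the inducible line 6 rose with Foxa2-Venus and none fell. Over all genes 3.51% were called lower and 4.75% higher in d3ko, and 6.96% higher and 1.47% lower with induction. At day 0 none of 64 was called by edgeR or DESeq2, and 3 had an unadjusted p under 0.05. At an unadjusted p under 0.05, 7 were higher in d3ko and 6 were lower with induction, and DESeq2 called 2 and 0 in these directions. The median over the lists was -0.11 at day 3 and 0.36 with induction, beside 0.02 and 0.01 over all genes.

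Among collagen IX partners, Col2a1, which encodes the fibrillar collagen that collagen IX decorates in cartilage, was called in both settings. It fell by 2.48 on the log2 scale in d3ko (adjusted p = 0.0107, edgeR), from 5.0 ± 0.994 to 0.913 ± 0.407 TPM (SD, n = 3 each). It rose by 1.46 with induction (adjusted p = 0.0233, edgeR), from 4.66 ± 0.184 to 13.0 ± 6.20 TPM (SD, n = 2 each). Sox9, a transcription factor that activates cartilage collagens, was called higher with induction (adjusted p = 0.00211, edgeR), at 0 and 5 counts in d2-FVFn and 147 and 207 counts in d2-FVFp (4.74 and 5.68 TPM). It too passed the count filter only through d2-FVFp, and its fitted fold rests on those few counts. At day 3 its log2 fold change in d3ko was 1.29 and did not pass (adjusted p = 0.102, edgeR), with 5.95 to 7.62 TPM in d3con and 6.42 to 27.6 TPM in d3ko. Col9a2, a partner chain of Col9a3 in collagen IX, passed in neither setting, at 1.48 in d3ko (adjusted p = 0.15, edgeR) and 0.82 with induction (adjusted p = 0.057). Col9a1, in the same list, had group means of 0 to 0.207 TPM.

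Of the genes linked to Gdpd5, the related phosphodiesterase Gdpd1 fell by 1.62 in d3ko (log2; adjusted p = 0.0158, edgeR), with 10.2 to 24.4 TPM in d3con and 5.65 to 5.82 TPM in d3ko. Gde1, another member of that family, rose by 1.35 with induction (adjusted p = 0.00532, edgeR). Among 5 genes of GPI-anchored proteins, the glypican gene Gpc4 fell by 2.34 in d3ko (adjusted p = 0.0242, edgeR), from 344 ± 180 TPM to 68.3 ± 31.8 TPM (SD, n = 3 each), and Gpc3 rose by 1.69 with induction (adjusted p = 0.00962, edgeR).

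Hdac11, the smallest histone deacetylase, was called in both settings, with a fall of 1.15 in d3ko (log2; adjusted p = 0.0209, edgeR) and a rise of 1.23 with induction (adjusted p = 0.0309, edgeR). It went from 11.8 ± 0.646 TPM in d3con to 5.32 ± 1.20 TPM in d3ko (SD, n = 3 each). No other gene among the 13 deacetylase and tubulin acetylation genes tested at day 3 was called. Of the apical constriction genes, Myh9, encoding a non-muscle myosin heavy chain, fell by 1.09 in d3ko (adjusted p = 0.0244, edgeR), while the other 11, Rock1 and Rock2 included, were not called. Plekhg2 rose by 1.18 with induction (adjusted p = 0.0333, edgeR), the only call among the 8 genes of the list around Plekhg3. The 3 lists around Eya2, Fam210b and Ctxn1 held no called gene in either setting, and of the 2 further cortexin genes 1 could be tested, at day 3. The calls at day 3 depended on single libraries, with 1 to 8 family genes lower when a library was left out (8 without d3ko replicate 2, 1 without d3con replicate 1 or 3) and none in a fit of only the 2 groups.

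**Figure D5:**
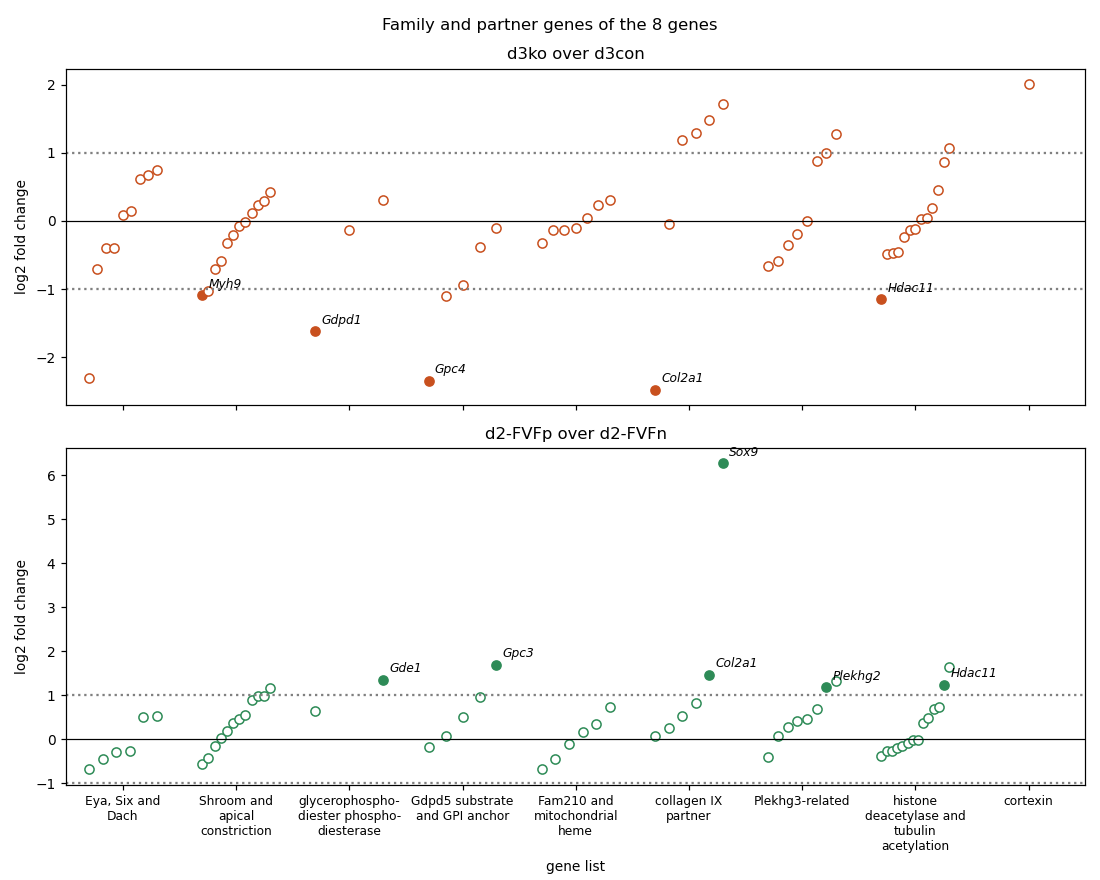
Log2 fold change (vertical axis) of the family and partner genes in 9 lists for d3ko over d3con (top) and d2-FVFp over d2-FVFn (bottom), with a point for each tested gene and dotted lines at a 2-fold change. Filled, named points are called genes, 5 lower at day 3 and 6 higher with induction, with Col2a1 and Hdac11 in both panels.

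Over the 14 libraries the correlation with Foxa2 itself (Pearson's r of log2(TPM + 1), a description in which groups, depth and sorting are shared) was 0.933 for Eya2, 0.814 for Plekhg3 and 0.752 for Fam210b, and 0.465 to 0.715 for the other 5 genes. The choice of genes as higher in d3con than d3ko favours positive values, both with Foxa2 and among the 8. The share of all genes that reach such values was not computed. The genes most like each other were Ctxn1 and Gdpd5 (r = 0.976), Fam210b and Plekhg3 (0.970) and Gdpd5 and Col9a3 (0.955). Searching all genes with a mean of at least 5 TPM in a group, the most similar to Eya2 were the potassium channel gene Kcnk16 (r = 0.971; 7.31 TPM in d3con, 2.67 TPM in d2-FVFp and listed at 0 in the other groups) and Tox3 (0.969). Closest to Plekhg3 were Egflam (0.974), from 12.8 TPM in d3con to 1.30 TPM in d3ko and 7.54 TPM in d2-FVFp, and the membrane metalloproteinase gene Mmp15 (0.973). Fam210b was most like Plekhg3, and next Anxa4 (0.968).

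For Ctxn1 the nearest were the cholesterol transporter gene Npc1 (0.989) and the ligand gene Wnt11 (0.981), which had 33.7 TPM in d3con, 2.89 TPM in d3ko and 0.235 TPM in d2-FVFp. For Gdpd5 they were Tuba8 (0.984), with 168 TPM in d3con and 1.21 TPM in d2-FVFp, and Zfp703 (0.983). For Col9a3 they were Ugcg (0.984) and Tspan7 (0.978), and for Shroom3 the Wnt receptor gene Fzd8 (0.970) and the retinoid receptor gene Rxra (0.964). Hdac6 had the weakest neighbours, Prkch (0.931) and F11r (0.891).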

How the data were processed

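The 8 genes, the family lists and the marker lists were chosen with earlier results of these data known. Total RNA of sorted cells was amplified with a low-input kit and sequenced as single-end reads. The authors aligned reads to mm10 with STAR and quantified each library with RSEM (versions not given in the sources used here). In the deposited tables the expected counts are read numbers per gene estimated by RSEM, unscaled for depth, and the deposited TPM values are scaled by the authors for length and library total. Groups were taken from the labels. Expected counts were rounded, filtered at 1 CPM in at least 2 libraries, scaled with TMM and tested with edgeR 4.0.16 (R 4.3.3), with Benjamini-Hochberg adjustment over all genes (13899 in the 10 day 0 and day 3 libraries, 12943 in the 4 induction libraries). Calls needed an adjusted p under 0.05 and a log2 fold change beyond 1 in either direction. The SE is the log2 fold change divided by the square root of F. Contrasts that involve the d3 libraries are given without p for the 8 genes. Named genes were Foxa2, the 8 genes, called family genes, overlapping genes and, for each of the 8, the 2 with the highest Pearson r. Markers and a few uncalled family genes were named outside this rule, after their values were seen. Per-chromosome medians used genes with a mean of at least 200 counts. Symbols were matched to RefSeq for 93.7% of genes. Alternatives were DESeq2 1.42.0, also against a 2-fold change, median-of-ratios scaling, no filter, a replicate block, only the 2 groups compared, libraries left out and, for the d3 median, log2(TPM + 1) and log2(TPM + 0.1). Scripts were tested on simulated data.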

Additional observations from a re-analysis of the deposited data

Results flagged for a closer look

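Hdac6 moved in opposite directions from day 0 to day 3 in the 2 genotypes. In controls all day 3 libraries were above all day 0 libraries, and in ko cells all were below. The fitted change in ko cells minus that in control cells was -1.99 (log2). This difference was not tested, since Hdac6 was chosen on the d3 libraries that enter it.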

How the results depend on the processing

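Of the 3 genes called with induction, Fam210b and Plekhg3 were called in each left-out fit. Eya2 was called without either d2-FVFn library and could not be tested without either d2-FVFp library, since it then lay under the count filter. The number called ranged from 2 to 4 with a library left out, and Hdac6 entered without d2-FVFn replicate 1 (1.10) but fell to 0.48 without d2-FVFn replicate 2 (adjusted p = 0.0279 and 0.19, edgeR). DESeq2 against a 2-fold change called 2 of the 8 and 1 family gene, against 6 by edgeR. Family genes called higher with induction numbered 3 to 8 with a library left out. None of the 8 was called lower with induction or at day 0 under any alternative run. The day 0 log2 fold change of Fam210b ranged from -0.02 (without d0con replicate 2) to 0.26 with a library left out. Family genes called lower in d3ko numbered 1 by DESeq2 against a 2-fold change, 0 in a fit of only the 2 groups, 0 without replicate 1 of both groups and 1 to 8 with 1 library left out. Called higher were 2 by DESeq2 and 0 to 3 with 1 library left out. Without replicate 2 of d3con and d3ko together, a choice made after seeing the data, 7 family genes were called higher and 8 lower, and the median of the 8 genes in d3ko was -2.44. That median was -1.98 without replicate 1 of both and -2.34 to -1.99 with 1 library left out. The causes were not tested. Over all genes, 660 were called higher and 488 lower in d3ko, with 7 and 60 in a fit of only the 2 groups, 0 and 1 without replicate 1 of both, 1521 and 1051 without replicate 2 of both, 997 and 681 by DESeq2 and 257 and 154 by DESeq2 against a 2-fold change. With induction 901 and 190 were called, against 221 and 12 by DESeq2 against a 2-fold change and 1218 and 330 without a filter.

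Same-numbered libraries did not deviate together throughout (r = 0.54, 0.29 and -0.02 for the 3 pairs of d3con and d3ko), and 2 of 3 d3con libraries correlated best with their own number. The induction and day 0 groups have only 2 pairs each (r = 0.29 and 0.11). When the replicate number was fitted as a block, 4 of the 8 genes were called higher with induction, Gdpd5 being added (1.30, adjusted p = 0.0226, edgeR), and 8 family genes. At day 0 no gene was called with the block, in d3ko 5 family genes were lower, and the median of the 8 was -2.17. The all-gene counts with the block were 1172 higher and 325 lower with induction and 415 and 401 in d3ko. Eya2 at 0 to 7 counts outside d3con and d2-FVFp, and Gdpd5 at 9 to 49 counts outside the d3 libraries, limit what these depths can show for both genes.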
